A study of Mus musculus with 18 samples.

Results

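The 9 genes described here carry or restrain signalling through Janus kinases (JAKs) and signal transducers and activators of transcription (STATs): the kinases Jak1 and Jak2, the transcription factors Stat2, Stat3, Irf2, Irf9 and Batf2, and the feedback inhibitors Socs1 and Socs3. They were chosen by name, with earlier results of these data known. Every entry listed under those names in the authors' deposited table of significant comparisons was taken. They are 9 of the 5455 named genes that the table lists in any of the 15 pairs of the 6 groups used here, with 82 comparisons over 14 entries (12 of them protein-coding transcripts in GENCODE M21). RAW264.7 is a mouse macrophage-like cell line. RNA was taken from cells carrying a lentiviral pINDUCER20 construct (called p2080) with mouse CITED1, a co-regulator of transcription that doxycycline switches on, and from parental cells without it. Construct cells were given doxycycline and interferon-gamma (IFNγ), IFNγ alone, doxycycline alone, or neither, and parental cells were given doxycycline or nothing. Each group had 3 samples, and the labels' usual doses were 100 ng/mL doxycycline and 200 U/mL IFNγ. No treatment time is given for these samples, and the labels do not say whether the construct cells were a clone or a pool, or whether the 3 samples of a group were separate cultures. A parental group with IFNγ and a construct without CITED1 were not analysed here, so the response to IFNγ is described in construct cells only.

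IFNγ binds a receptor that holds JAK1 and JAK2, which phosphorylate each other, the receptor and then STAT proteins. STAT dimers enter the nucleus and bind gamma-activated sites (GAS), while STAT2 and IRF9 belong to a complex, best known from type I interferon signalling, that binds interferon-stimulated response elements (ISRE). SOCS proteins are made in response to the same signal and inhibit the kinases and receptors, and in macrophages SOCS1 is the best known brake on IFNγ signalling.

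Promoter windows from 250 bases before to 50 bases after the annotated start were taken from RefSeq (GRCm38.p6) and found for 8 of the 9 genes by symbol, 9 windows in all. They were searched for a GAS pattern, TTCNNNGAA, which reads the same on both strands, and for an ISRE-like pattern, GAAANNGAAA or TTTCNNTTTC, on either strand. A GAS match was found for 2 genes and an ISRE-like match for 3, 4 genes having either. Over all 32851 windows of this length, 8.30% held a GAS match, 3.44% an ISRE-like match and 11.3% either. The 4 windows with a match are shown because they place these patterns beside the induced genes, with the matching letters in capitals, 5′ to 3′ on the gene's strand. In the Irf2 window, chr8:46739495-46739794 on the plus strand, the ISRE-like match begins 241 bases and the GAS match 224 bases before the start. In the Stat2 window, chr10:128270248-128270547 on the plus strand, an ISRE-like match begins 222 bases before the start. The Socs1 window, chr16:10785487-10785786 on the minus strand, holds overlapping ISRE-like matches that begin 83 and 77 bases before the start. In the Socs3 window, chr11:117969317-117969616 on the minus strand, a GAS match begins 154 bases before the start. These distances are from the RefSeq starts. The Socs3 and Stat2 transcripts described below begin outside these windows, at 117969186 and 128270576.
Irf2: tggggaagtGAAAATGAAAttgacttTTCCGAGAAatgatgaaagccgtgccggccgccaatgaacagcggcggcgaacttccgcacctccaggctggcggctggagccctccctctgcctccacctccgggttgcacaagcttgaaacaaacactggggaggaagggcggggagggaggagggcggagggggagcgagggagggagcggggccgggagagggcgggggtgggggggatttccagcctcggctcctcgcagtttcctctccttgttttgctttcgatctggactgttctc
Stat2: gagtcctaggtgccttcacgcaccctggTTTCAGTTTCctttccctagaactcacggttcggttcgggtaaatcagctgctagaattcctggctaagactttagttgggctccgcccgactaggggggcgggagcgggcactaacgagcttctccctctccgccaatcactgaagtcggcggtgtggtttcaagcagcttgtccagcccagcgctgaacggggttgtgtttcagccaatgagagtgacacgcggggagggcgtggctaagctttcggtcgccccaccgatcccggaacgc
Socs1: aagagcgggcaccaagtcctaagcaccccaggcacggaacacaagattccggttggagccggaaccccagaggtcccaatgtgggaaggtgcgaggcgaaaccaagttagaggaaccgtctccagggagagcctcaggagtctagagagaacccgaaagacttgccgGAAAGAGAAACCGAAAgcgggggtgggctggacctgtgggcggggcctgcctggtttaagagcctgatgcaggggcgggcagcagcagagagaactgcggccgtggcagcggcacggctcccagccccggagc
Socs3: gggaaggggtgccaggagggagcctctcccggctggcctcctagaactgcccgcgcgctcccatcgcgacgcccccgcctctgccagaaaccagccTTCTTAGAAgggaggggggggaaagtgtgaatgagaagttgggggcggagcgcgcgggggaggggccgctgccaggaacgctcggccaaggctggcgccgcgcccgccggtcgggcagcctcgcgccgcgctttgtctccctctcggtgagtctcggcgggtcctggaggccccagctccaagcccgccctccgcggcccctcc
The windows of Jak1, Jak2, Stat3 and Irf9 hold neither pattern. A match is a description of these letters and not a site at which binding was measured.

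The table gives no value per sample. Each entry has the fold between 2 groups, an FPKM total and the authors' q, a p-value adjusted for multiple tests. FPKM counts fragments per unit of transcript length and of sequencing depth, and the total was read as the sum of both groups. Only comparisons that reach 2-fold at a q no higher than 0.05 are listed. From fold and total the level of each group was rebuilt, so the levels below are rebuilt FPKM with no SD or sequencing depth, and "rose" is used only of differences that the authors called. An entry without a comparison in the table is not thereby shown to be unchanged. Where a gene had several entries, its values are those of the entry with the highest level, called its main entry. Transcripts that are not listed are not part of that level. The induced gene was checked first: Cited1 stood at 86.7 rebuilt FPKM with doxycycline and IFNγ, 11.5 with IFNγ alone, 168 with doxycycline alone and 0.703 in untreated construct cells. Doxycycline raised it 238.85-fold over untreated construct cells in the authors' deposited table, and IFNγ without doxycycline raised it 16.33-fold. Of 8 macrophage markers 5 were listed, which a marker can be only where it differed between groups, and of 15 markers of fibroblasts, T cells, B cells and epithelium none were. The 5 did not move together with IFNγ, and their part in the results was not tested. Ptprc (CD45) stood at 164 and 111 rebuilt FPKM with both treatments and with IFNγ alone, against 47.7 to 54.9 in the 4 unstimulated groups. Fcgr1 stood at 274 and 87.5 rebuilt FPKM in the same IFNγ groups, against 14.1 to 17.8 in the unstimulated groups. Adgre1 (F4/80) stood at 5.03 rebuilt FPKM with both treatments and 7.10 with IFNγ alone, against 13.9 with doxycycline and 12.2 untreated in construct cells, and at 32.6 and 28.6 in parental cells with and without doxycycline. Cd68 stood at 255 rebuilt FPKM with both treatments and 296 with IFNγ alone, against 661 with doxycycline alone. Itgam stood at 20.04 rebuilt FPKM with both treatments, against 44.0 with doxycycline and 42.4 in untreated construct cells.

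With IFNγ alone, all 9 genes rose in construct cells over untreated construct cells, against a background of 25.7% of listed genes called higher and 24.5% called lower in that comparison. In construct cells given doxycycline, IFNγ raised 7 of the 9, where 33.7% of listed genes were called higher and 34.0% lower. With both treatments against untreated construct cells 8 of the 9 rose, where 33.8% of listed genes were called higher. None of the 9 was called lower in any comparison. For both treatments against untreated construct cells or against IFNγ alone, the share of listed genes called lower was not counted. On the log2 scale the median of the 9 main-entry ratios was 3.03 with IFNγ alone. Over 3759 listed entries with levels in both groups and at least 1 FPKM in one of them, it was 0.62. For the 7 genes with levels under doxycycline the median was 2.76, beside 1.02 over 4576 entries by the same limit. The medians over all listed entries include minor entries, while those of the 9 genes do not, so the sets are unlike. The comparisons are not independent of one another, since they share groups. The 9 genes were chosen with earlier results of these data known. Of their 82 comparisons, 81 set an IFNγ group above an unstimulated one. Their counts and medians therefore describe these genes and are not independent evidence of a pathway response. RNA was measured in bulk, so more responding cells and more RNA per cell cannot be told apart.

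**Figure D1:**
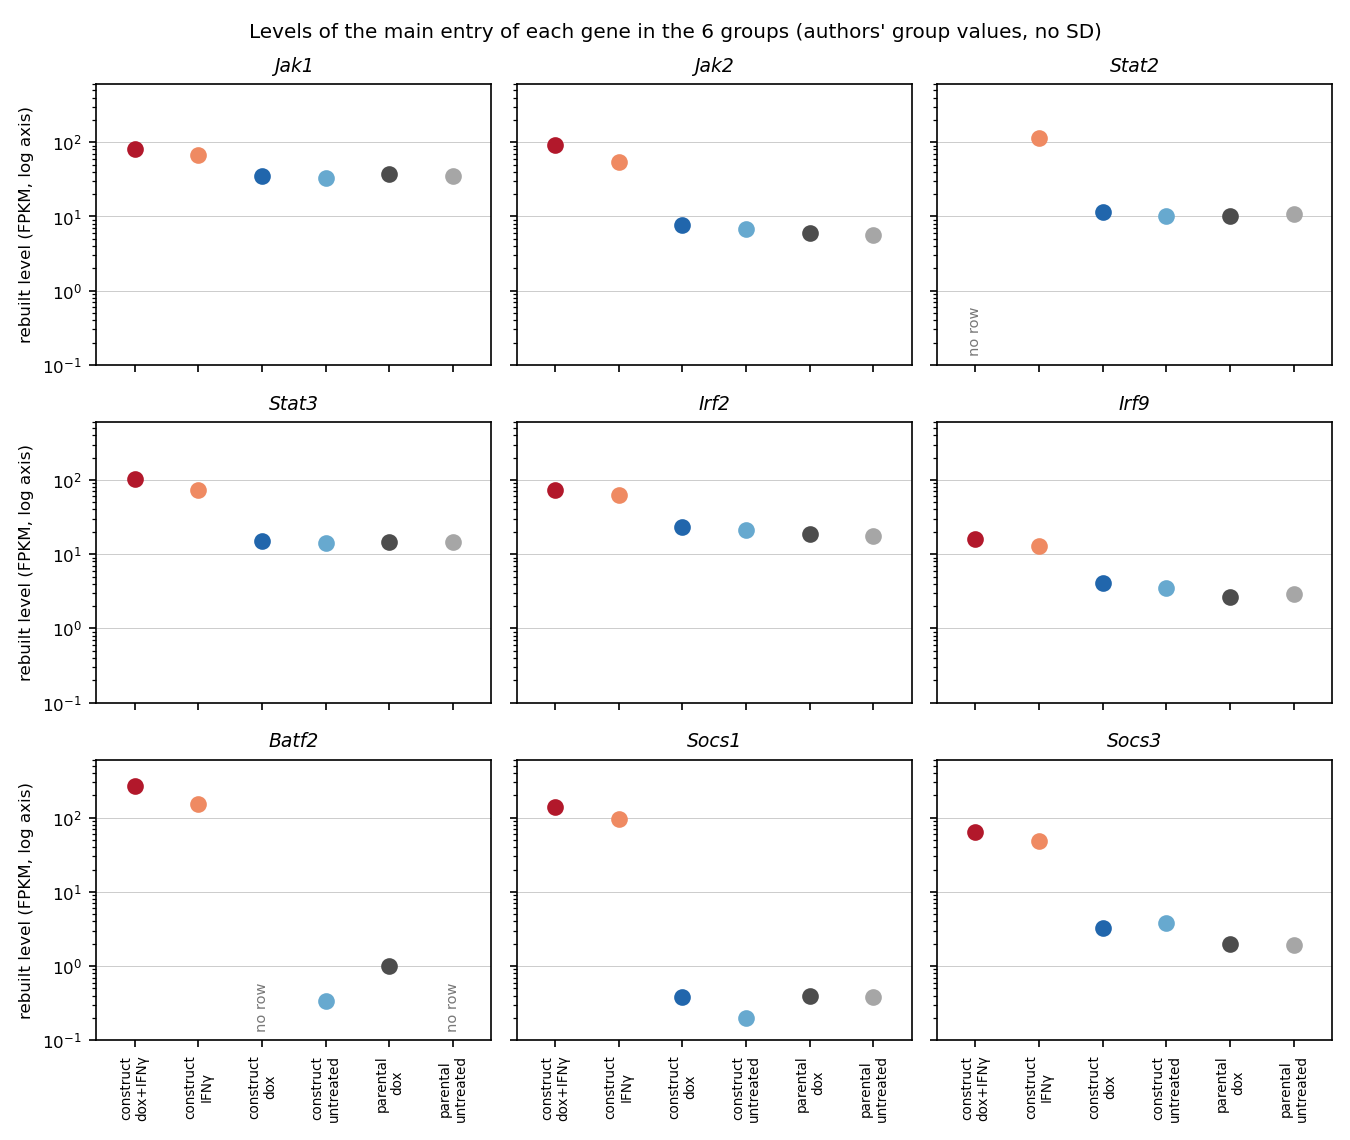
Rebuilt level in FPKM (log axis) of each of the 9 genes in the 6 groups, 1 point per group, with no error bar because the table holds no value per sample. Both IFNγ groups lie above every unstimulated group with a level, from Jak1 at 81.1 and 67.8 against 33.1 to 36.9 FPKM, to Socs1 at 140 and 95.9 against 0.203 to 0.395 FPKM.

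Of the kinases, Jak2 had the higher folds and Jak1 the higher level without IFNγ. Jak2 (ENSMUST00000065796, chr19:29251828-29313080, plus strand, in GENCODE M21 on GRCm38) stood at 92.7 rebuilt FPKM with doxycycline and IFNγ, 54.5 with IFNγ alone, 7.61 with doxycycline alone and 6.69 in untreated construct cells, and at 5.92 and 5.69 in parental cells with and without doxycycline. Both IFNγ groups lay far above the other 4, which spanned 1.34-fold from lowest to highest. In the authors' deposited table IFNγ raised Jak2 8.15-fold over untreated construct cells and 12.18-fold in cells given doxycycline, each with a q of 3.87e-04, the smallest in the table and shared by 71.8% of its comparisons between these groups. Over all 4 unstimulated groups the fold in the authors' deposited table ran from 12.18 to 16.29 with both treatments and from 7.16 to 9.58 with IFNγ alone.

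Jak1 (ENSMUST00000102781, chr4:101152367-101265282, minus strand) is shared by the receptors of both interferon types and of the IL-6 family. It had the highest main-entry level of the genes with a level in every unstimulated group. Its levels were 81.1 rebuilt FPKM with both treatments, 67.8 with IFNγ alone, 35.4 with doxycycline and 33.1 in untreated construct cells, and 36.9 and 35.1 in parental cells with and without doxycycline. It rose 2.05-fold with IFNγ alone and 2.29-fold with IFNγ under doxycycline in the authors' deposited table, both with a q of 3.87e-04 and both close to the table's 2-fold limit. With IFNγ alone it has no listed comparison against the other 3 unstimulated groups, while with both treatments it was 2.2 to 2.45-fold above all 4. After the levels were rescaled so that the median listed entry had a log2 ratio of 0, the log2 ratio of Jak1 was 0.42 with IFNγ alone and 0.18 under doxycycline, short of 2-fold. That median is over entries kept by the table's filter, so the shift is not an estimate of the scaling between libraries.

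Stat2, the STAT protein that works with IRF9, had the second highest main-entry level of the 9 genes with IFNγ alone. Stat2 (ENSMUST00000085708, chr10:128270576-128292849, plus strand) stood at 114 rebuilt FPKM with IFNγ alone, 11.4 with doxycycline and 10.0 in untreated construct cells, and at 10.1 and 10.9 in parental cells with and without doxycycline. The authors' deposited table gives an 11.37-fold rise over untreated construct cells with a q of 3.87e-04, and 9.97 to 11.37-fold over the 4 unstimulated groups. No level could be rebuilt with both treatments, since no comparison of Stat2 with that group is listed. The levels with IFNγ alone and with doxycycline alone lie 9.97-fold apart, so no single level could be within 2-fold of both, and the missing comparisons therefore do not rest on the 2-fold limit alone. Of the 915 main entries called higher with IFNγ alone than in all 4 unstimulated groups, 77 (8.42%) likewise had no listed comparison with the group given both treatments, Stat2 and, of the wider pathway, Irf7 and Usp18 among them. A second Stat2 entry, the retained-intron transcript Stat2-206, stood at 16.2 rebuilt FPKM with IFNγ alone, 2.00 with doxycycline and 2.08 in untreated construct cells, and rose 7.79-fold over untreated construct cells with a q of 0.0471 in the authors' deposited table.

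Stat3, which carries signals of the IL-6 and IL-10 families, rose in all 3 of its listed transcripts. The main one, Stat3-203 (ENSMUST00000127638, chr11:100886810-100939540, minus strand), stood at 102 rebuilt FPKM with both treatments and 73.6 with IFNγ alone, against 15.04 with doxycycline and 14.1 untreated in construct cells and 14.6 in each parental group. The 4 unstimulated groups spanned 1.07-fold. In the authors' deposited table Stat3-203 rose 5.21-fold with IFNγ alone and 6.77-fold under doxycycline, both with a q of 3.87e-04. Stat3-201 stood at 7.57 and 5.12 rebuilt FPKM in the groups with both treatments and IFNγ alone, against 0.879 to 1.21 in the unstimulated groups. Stat3-202 stood at 2.5 and 2.41 rebuilt FPKM in those IFNγ groups, against 0.345 to 0.444. In the authors' deposited table Stat3-201 rose 5.49-fold (q of 0.00966) and Stat3-202 6.22-fold (q of 0.0475) with IFNγ alone. Stat3-203 therefore held most of the listed Stat3 signal in every group. How the authors' software divides reads among overlapping transcripts of 1 gene bears on the minor entries, whose q came closer to the limit.

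**Figure D2:**
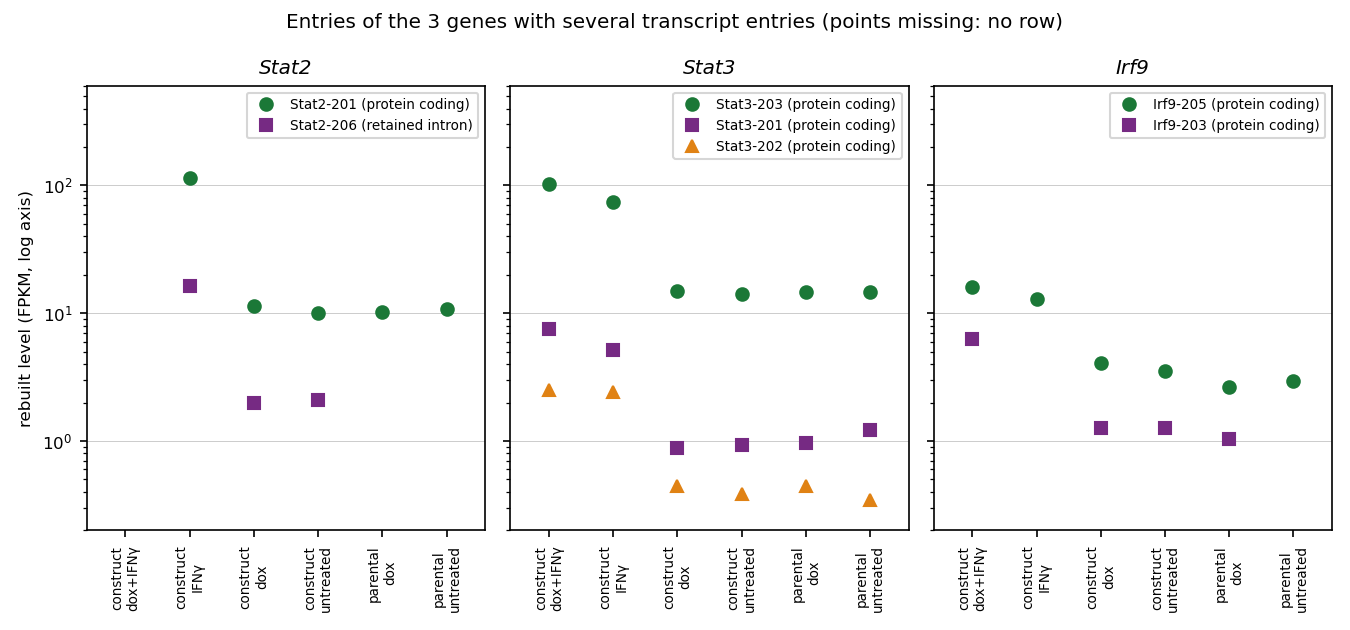
Rebuilt level in FPKM (log axis) of each listed transcript entry of Stat2, Stat3 and Irf9 in the 6 groups, 1 point per group and no error bars; a missing point means that no comparison with that group is listed. The entries of a gene stand higher with IFNγ than without it wherever both are listed, from 102 FPKM for Stat3-203 to 2.5 FPKM for Stat3-202 with both treatments.

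Irf2 and Irf9 had lower folds with IFNγ than the main entries of the STAT genes, a difference between genes that was not tested. Irf2 (ENSMUST00000034041, chr8:46739732-46847458, plus strand), which binds the same elements as the activator IRF1 and is best known for restraining interferon-responsive genes, stood at 72.3 rebuilt FPKM with both treatments, 63.2 with IFNγ alone, 23.1 with doxycycline and 20.99 in untreated construct cells, and at 18.7 and 17.6 in parental cells with and without doxycycline. It rose 3.01-fold with IFNγ alone and 3.14-fold under doxycycline in the authors' deposited table, each with a q of 3.87e-04. Both IFNγ groups lay above all 4 unstimulated groups. Rescaled to a median of 0, its log2 ratio was 0.97 with IFNγ alone and 0.63 under doxycycline, short of 2-fold.

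Irf9, the DNA-binding partner of STAT2, had the lowest main-entry level of the genes with a level in both IFNγ groups. No principal isoform of Irf9 is listed, so the level of the whole gene is not known. Its main entry Irf9-205 (ENSMUST00000138037, chr14:55604579-55610030, plus strand), which is not the principal isoform in the APPRIS annotation although those of the other 8 genes are, stood at 16.0 rebuilt FPKM with both treatments, 13.0 with IFNγ alone, 4.05 with doxycycline and 3.50 in untreated construct cells, and at 2.63 and 2.95 in parental cells with and without doxycycline. In the authors' deposited table it rose 3.71-fold with IFNγ alone (q of 0.00659) and 3.95-fold under doxycycline (q of 0.00304). Under doxycycline its log2 ratio after rescaling was 0.97, short of 2-fold. A second transcript, Irf9-203, stood at 6.27 rebuilt FPKM with both treatments, 1.26 with doxycycline and 1.26 in untreated construct cells, and 1.03 in parental cells with doxycycline. It rose 5.00-fold with IFNγ under doxycycline (q of 0.0252) in the authors' deposited table and has no level with IFNγ alone.

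Batf2, a basic leucine zipper factor of activated macrophages, had the highest main-entry level of the genes with a level in both IFNγ groups. It stood near the bottom in untreated construct cells. Batf2 (ENSMUST00000045042, chr19:6164439-6172476, plus strand) stood at 268 rebuilt FPKM with both treatments, 153 with IFNγ alone, 0.334 in untreated construct cells and 0.995 in parental cells with doxycycline. It rose 801.83-fold with both treatments and 457.79-fold with IFNγ alone over untreated construct cells in the authors' deposited table, each with a q of 0.00143. Against parental cells with doxycycline these folds were 269.5 and 153.87 in the authors' deposited table. The baselines under 1 FPKM differed 2.98-fold from each other with no comparison between them listed, so the size of these folds depends on which baseline is used. With a pseudocount of 1 FPKM the log2 ratio of Batf2 with IFNγ alone over untreated construct cells was 6.85, where it was 8.84 without one. No comparison with construct cells given doxycycline alone or with untreated parental cells is listed.

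Of the feedback inhibitors, Socs1 had the larger folds, over a baseline below 1 FPKM. Socs1 (ENSMUST00000038099, chr16:10782243-10785536, minus strand), whose protein binds JAKs and blocks their activity, stood at 140 rebuilt FPKM with both treatments and 95.9 with IFNγ alone, against 0.383 with doxycycline and 0.203 untreated in construct cells and 0.395 and 0.378 in parental cells with and without doxycycline. It rose 473.42-fold with IFNγ alone and 365.78-fold under doxycycline in the authors' deposited table, both with a q of 3.87e-04. The size and order of these folds rest on the baseline, as the level with doxycycline alone was 1.89 times that of untreated cells, a difference below 1 FPKM that the authors did not call. With a pseudocount of 1 FPKM the log2 ratio of Socs1 was 6.33 with IFNγ alone, where it was 8.89 without a pseudocount, and 6.67 under doxycycline, where it was 8.51. Over the 4 unstimulated groups the authors' deposited table gives 354.46 to 690.49-fold with both treatments and 243.03 to 473.42-fold with IFNγ alone.

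Socs3 (ENSMUST00000054002, chr11:117966079-117969186, minus strand), which acts mainly on receptors of the IL-6 family, was present before stimulation. It stood at 64.9 rebuilt FPKM with both treatments and 48.8 with IFNγ alone, against 3.25 with doxycycline and 3.78 untreated in construct cells and 1.98 and 1.92 in parental cells with and without doxycycline. It rose 12.92-fold with IFNγ alone and 19.96-fold under doxycycline in the authors' deposited table, both with a q of 3.87e-04. Against untreated parental cells the authors' deposited table gives 33.75-fold with both treatments and 25.39-fold with IFNγ alone. Untreated construct cells held 1.96 times the Socs3 of untreated parental cells, just under the table's limit and not called.

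**Figure D3:**
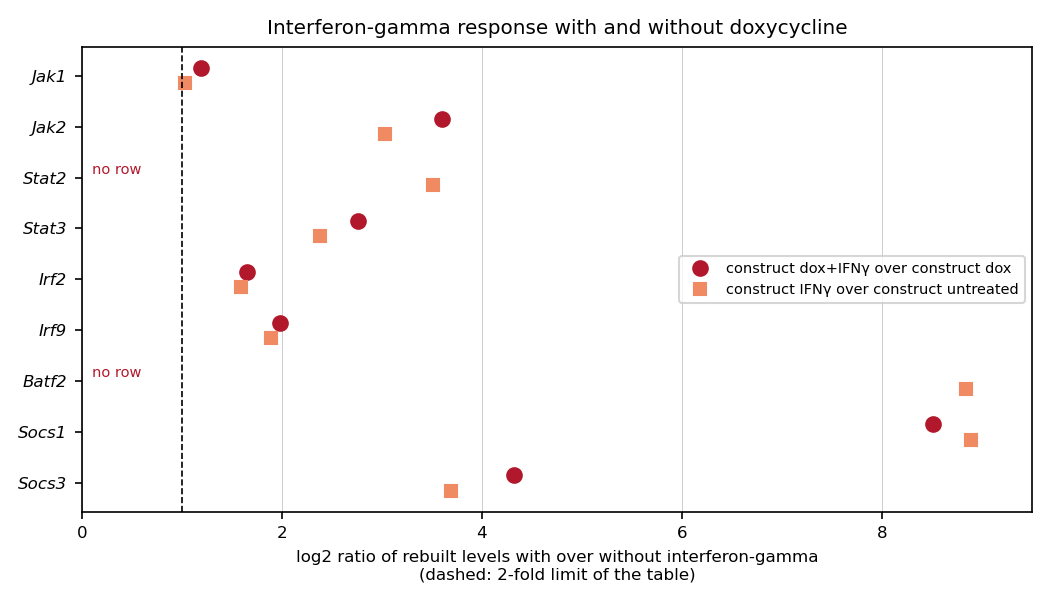
Log2 ratio of rebuilt levels with over without IFNγ for each gene, with doxycycline (circles) and without it (squares); the dashed line is the table's 2-fold limit. Jak2 has 3.61 with doxycycline and 3.03 without, Socs3 4.32 and 3.69, and Socs1 8.51 and 8.89. For Stat2 and Batf2 no comparison of both treatments with doxycycline alone in construct cells is listed.

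Whether the response to IFNγ differed with doxycycline was not tested, as a test of that interaction needs values per sample. The direct comparison of both treatments with IFNγ alone lists none of the main entries of the 9 genes. The rebuilt levels with both treatments were 1.75 times those with IFNγ alone for Batf2, 1.70 for Jak2, 1.46 for Socs1, 1.38 for Stat3, 1.33 for Socs3, 1.23 for Irf9, 1.20 for Jak1 and 1.14 for Irf2. All 8 lay above 1 and below 2, with a median log2 ratio of 0.44. Such a ratio was common among the induced genes that could be compared. Over 1146 main entries called higher with IFNγ alone, these 8 included, the median was 0.35, with quartiles of 0.06 and 0.67. Of these entries 79.1% lay above 0. Each needed at least 1 FPKM with IFNγ alone and a listed comparison with the group given both treatments. Induced entries without such a comparison are left out, and their effect on the median is unknown. The 1 listed comparison for these genes was a minor locus entry under the name Batf2, not found in GENCODE M21, at 0.850 rebuilt FPKM with both treatments and 0.360 with IFNγ alone, 2.36-fold with a q of 3.87e-04 in the authors' deposited table. That makes 1 of the 9 genes called higher, where 6.84% of listed genes were, and the entry lies below 1 FPKM in both groups.

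**Figure D4:**
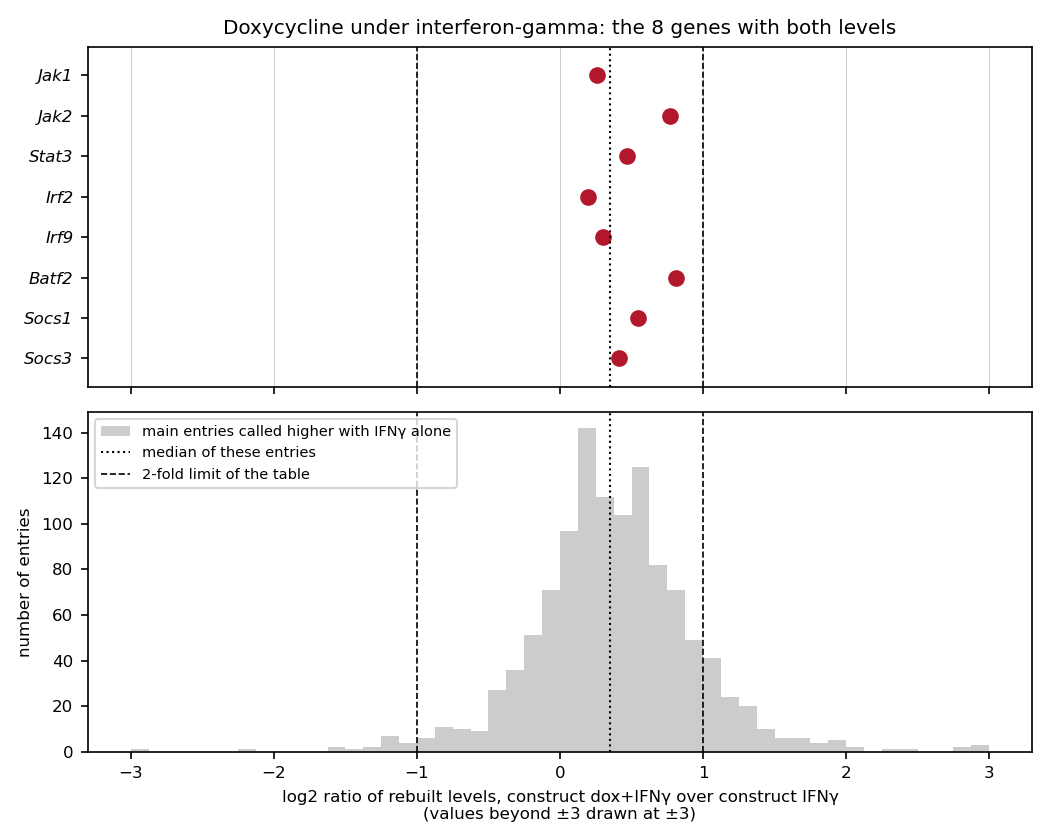
Log2 ratio of rebuilt levels in construct cells with doxycycline and IFNγ over IFNγ alone, for the 8 genes with both levels (upper panel, 1 point a gene) and as a histogram of 1146 main entries called higher with IFNγ alone (lower panel; dotted line, their median of 0.35; dashed lines, the 2-fold limit). The 8 genes run from 0.20 for Irf2 to 0.81 for Batf2, between the limits and around that median. The histogram holds only entries with a level in both groups and at least 1 FPKM with IFNγ alone.

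Without IFNγ, none of the 9 genes was called in any comparison. Doxycycline alone in construct cells called 0 of the 9, where 0.403% of listed genes were called in either direction, and rebuilt ratios were 1.89 for Socs1, 0.860 for Socs3 and 1.07 to 1.15 for the other 6 genes with both levels. In parental cells doxycycline called 0 of the 9, where 0.898% of listed genes were called, with ratios of 0.891 to 1.06. Construct over parental cells without doxycycline gave 0 of 9 against 4.49% of listed genes, and with doxycycline in both 0 of 9 against 5.61%. In the pair without doxycycline the rebuilt ratio was 1.96 for Socs3, 0.537 for Socs1 and 0.919 to 1.19 for the other 6. In the pair with doxycycline it was 1.64 for Socs3, 1.54 for Irf9 and 0.960 to 1.29 for the other 6. The Socs1 values rest on levels under 0.4 FPKM. At background shares this low, a count of 0 among 9 genes is close to what the share of all listed genes would give.

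The order of the 9 genes by main-entry level changed with IFNγ. FPKM is scaled by transcript length, so levels of different entries can be set side by side. They are levels of single transcripts and not of whole genes, and the Irf9 entry is not its principal isoform. In untreated construct cells the rebuilt FPKM ran downward through Jak1, Irf2, Stat3, Stat2, Jak2, Socs3, Irf9, Batf2 and Socs1, the last at 0.203. With IFNγ alone the order was Batf2, Stat2, Socs1, Stat3, Jak1, Irf2, Jak2, Socs3 and Irf9, and with both treatments Jak2 stood above Jak1 and Irf2. The neighbours cannot be told apart by replicate spread, which the table does not give.

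Of 70 other genes of the pathway (ligands, receptors, kinases, STATs, IRFs, BATF factors, SOCS family, other inhibitors and co-regulators), 31 were listed in some comparison, and the background percentages compare with these 31 only. IFNγ alone raised 19 of the 31 and lowered 1 over untreated construct cells, where 25.7% of all listed genes were called higher. The 19 include Cited1, the gene that the construct carries. IFNγ under doxycycline raised 16 of the 31 and lowered 2, where 33.7% were called higher. Both treatments against IFNγ alone raised 8 of the 31, where 6.84% were called higher. They lowered none, but the share of all listed genes called lower there was not counted, so no direction is read from this. Counts by role are small and were not tested. The other kinases also rose: Jak3 stood at 14.1 rebuilt FPKM with IFNγ alone and 4.00 in untreated construct cells. Tyk2 stood at 35.2 rebuilt FPKM with IFNγ alone and 12.6 in untreated construct cells. Of 7 further IRF genes 2 were listed and both rose with IFNγ alone, Irf5 at 137 rebuilt FPKM against 49.9 in untreated construct cells and Irf7 at 187 against 24.8 in untreated construct cells. Of 6 other SOCS family genes 2 were listed and none was called for IFNγ with or without doxycycline. Socs7 was 2.01-fold higher with both treatments than in untreated construct cells in the authors' deposited table. Socs6 went the other way against parental cells, at 1.47 rebuilt FPKM with both treatments. The authors' deposited table gives it as 2.9-fold lower than parental cells with doxycycline and 2.28-fold lower than untreated parental cells. Socs6 has no level in the other construct groups.

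Of 18 receptor genes 10 were listed, of which 6 rose and Csf3r fell with IFNγ alone. Il4ra, a subunit of the IL-4 receptor, had the highest fold of these, at 12.0 rebuilt FPKM with IFNγ alone and 0.331 in untreated construct cells, 36.14-fold in the authors' deposited table with a q of 3.87e-04. Il10ra, through which IL-10 activates STAT3, stood at 84.2 rebuilt FPKM with both treatments and 10.1 with doxycycline, 8.37-fold in the authors' deposited table. Il13ra1 and Il2rg, both receptor subunits, rose 7.74-fold and 6.09-fold with IFNγ under doxycycline in the authors' deposited table. In that comparison 7 of the 10 listed receptor genes rose and 2 fell, Csf3r and Il6st. Il6st stood at 4.59 rebuilt FPKM with both treatments and 11.1 with doxycycline, 2.43-fold lower in the authors' deposited table. Of 14 ligand genes 8 were listed and 3 rose with IFNγ alone. They were led by Lif at 93.01-fold in the authors' deposited table (q of 0.0313), with 2.66 rebuilt FPKM with IFNγ alone and 0.0286 in untreated construct cells. Ifnb1, Il10, Il27 and Il6 have no level in any unstimulated group, so whether they rose is not shown. Csf1 has none in unstimulated construct cells. With IFNγ alone it was 9.93 to 14.19-fold above the parental groups in the authors' deposited table. Il15 rose 13.86-fold with IFNγ alone and 34.2-fold under doxycycline in the authors' deposited table. Of 11 other inhibitors 5 were listed and 4 rose with IFNγ alone, including Usp18, which restrains type I interferon receptor signalling, at 191 rebuilt FPKM with IFNγ alone and 24.9 in untreated construct cells.

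The 8 pathway genes that were higher with both treatments than with IFNγ alone were 6 ligands, Cited1 and Csf2ra, and Csf2ra was called only by a minor entry, which leaves 7 with main entries only. Whether ligands differed from the other roles was not tested. Il10 stood at 1.82 rebuilt FPKM with both treatments and 0.222 with IFNγ alone, 8.17-fold in the authors' deposited table (q of 0.00272). Ifnb1, the gene of interferon-beta, stood at 6.18 rebuilt FPKM with both treatments and 1.40 with IFNγ alone, 4.41-fold in the authors' deposited table. Csf1, the macrophage growth factor, was 4.12-fold higher with both treatments in the authors' deposited table. Il27 stood at 292 rebuilt FPKM with both treatments and 113 with IFNγ alone, 2.59-fold in the authors' deposited table. Il6 stood at 3.96 rebuilt FPKM with both treatments and 1.37 with IFNγ alone, 2.89-fold in the authors' deposited table (q of 7.47e-04).

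For the 7 members with a level in all 4 construct groups, the genes with the most alike pattern were found among 2012 main entries by the root mean square difference of centred log2 levels over those 4 groups, a likeness of group levels only. Socs3 was closest to Tnfsf18 (0.0343) and Tnf (0.0369), with Tnf at 253 rebuilt FPKM with both treatments, 189 with IFNγ alone, 13.3 with doxycycline and 15.4 untreated. Jak1 was closest to Plekhb2 (0.00334), Irf2 to Rel (0.0224), Stat3 to Xkr8 (0.0446), Irf9 to Adprm (0.0516) and Jak2 to Maff (0.0641). Socs1 had no close match among these entries. The nearest was Cfb at 0.393, with 261 rebuilt FPKM with both treatments, 105 with IFNγ alone, 0.640 with doxycycline and 0.466 untreated. Entries without a level in all 4 groups could not be matched. The Socs1 pattern also rests on levels of 0.383 FPKM with doxycycline and 0.203 untreated.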

How the data were processed

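Poly(A)-selected, directional RNA libraries were made from 18 samples in 6 groups of 3, per the labels' protocols. The submitters' processing notes name Cuffdiff 2.2.1, edgeR, featureCounts, STAR 2.5.3a and FastQC 0.11.5, without roles. Not given in the sources used here are the genome build, the annotation, the scaling between libraries and the set of tests behind q. The authors deposited 1 table of pairwise comparisons. Per the file headers it gives a linear fold (ratio), a direction, an FPKM total and a q-value (adjusted p-value). The headers do not say that the total is the sum of both groups. Of its 112230 comparisons, 77406 involve groups not used here and 34824 were used. The smallest fold in these was 2 and the largest q 0.0499, so the deposited table had been filtered. It holds no counts or values per sample, so depth is unknown, no SD or test could be computed, and each call is the authors'.

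Dividing a pair's total by the fold plus 1 gave its lower level, and multiplying that by the fold gave its higher level, which reads the total as a sum; absolute FPKM rest on this and ratios do not. The median over comparisons was taken. In the 9 genes 56 levels were rebuilt more than once and differed by at most 0.300%, while 16 rest on 1 comparison. A gene was counted in a direction only where none of its called entries went the other way. The background percentages are of the 5455 named genes listed, not of all genes tested. Transcript types and positions came from GENCODE M21 (GRCm38), matched by identifier, and promoter windows from RefSeq. Python 3.11.15, pandas 2.3.3 and numpy 2.4.6 were used, and the rebuilding was tested on simulated data.

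The members, the pathway list and the alternatives were chosen with earlier results of these data known, so no list is independent evidence. All 9 members are named. Of the other pathway genes called, up to 6 per comparison were eligible by deposited fold. Jak3, Tyk2, Irf5, Irf7, Csf3r, Csf2ra, Il6st, Socs6 and Socs7 are named beside them, chosen after their values were seen. Likeness was ranked over entries of at least 5 FPKM in a construct group, leaving out predicted genes. Alternatives were a q of 0.01 or less, at least 1 FPKM, a pseudocount of 1 FPKM, the main entry only, rescaling to a median log2 ratio of 0, at least 4-fold, and the sum of a gene's entries. Some genes of the pathway list are not reported here by name.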

Additional observations from a re-analysis of the deposited data

How the results depend on the processing

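No paired analysis was possible because the table holds no values per sample, and for the same reason no replicate could be left out. The counts of members called with IFNγ, 9 without doxycycline and 7 with it, ran from 6 to 9 and from 5 to 7 over the 6 alternatives, and no ratio changed sign. The 1 member called with both treatments against IFNγ alone became 0 with a minimum of 1 FPKM, with a pseudocount of 1 FPKM, with the main entry only and at 4-fold or more, since it is the Batf2 locus entry below 1 FPKM. Rescaling to the median of the listed entries, which the table's filter selected, shifted log2 ratios by 0.62 for IFNγ alone and by 1.02 for IFNγ under doxycycline. This took the main entries of Jak1, Irf2 and, under doxycycline, Irf9 below 2-fold. It left 7 of the 9 members called with IFNγ alone and 5 of the 7 under doxycycline, Irf9 there by its second entry. A pseudocount of 1 FPKM turned the order of Batf2 and Socs1 with IFNγ alone, at log2 ratios of 6.85 and 6.33. Of the alternatives for the other pathway genes, chosen after seeing the data, 4-fold or more left 11 higher with IFNγ alone, 10 under doxycycline and 4 with both treatments against IFNγ alone, and rescaling left 10 under doxycycline. Listed comparisons reach 2-fold, so smaller differences among the 9 genes could not be seen. Whether a level of 0 in a group kept a comparison from being listed is not known.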
